A study of Mus musculus with 6 samples.

Results

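Androgen response genes known from peripheral tissues such as the prostate were followed in the neonatal mouse brain after treatment with testosterone propionate (TP, an ester of testosterone). The set was given as a list of 30 named genes, and every probe set that the array annotation pairs with just 1 of them was used. All 30 genes were found, through 96 probe sets, among 18193 genes and 34945 single-gene probe sets in all. The rule that names the genes uses no measured value, but it was written with earlier results of these data known.

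Whole brains of C57BL/6 mice (C57BL/6J in part of the labels) were profiled on 6 Affymetrix arrays. Mice of the TP groups received 1 mg of TP in 20 µL of sesame oil by intraperitoneal injection on postnatal day 2, and vehicle mice received 20 µL of the oil alone. Brains were taken on postnatal day 6, and each array carried RNA pooled from 6 mice. The groups were male TP with 1 array, female TP with 2 arrays, male vehicle with 1 array and female vehicle with 2 arrays. No array carried untreated mice, so both treatments share the injection and the oil. The labels do not say that the later female array of a treatment came from other mice, so the p-values measure only how far these arrays differ, and that spread may be technical. In whole tissue, fewer cells of a type and less RNA per cell cannot be told apart.

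Testosterone enters cells and binds the androgen receptor, a transcription factor that chaperones hold in the cytoplasm until the hormone releases it to the nucleus. There it binds androgen response elements, which are inverted repeats of a short motif, and recruits coregulators to its target genes. Much of what is known of these targets comes from human prostate cancer cells, where proteases, transporters, lipid enzymes and transcription factors respond to androgens. In the rodent brain the hormone also acts after conversion to estradiol by aromatase, and such exposure around birth is known to establish lasting sex differences.

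The array labelled male TP stood apart from the other arrays. Xist, the long RNA behind X inactivation, read 10.45 log2 units there, against 5.29 in the male vehicle array, and 12.81 and 12.83 in female TP arrays against 12.71 and 12.61 in female vehicle arrays. The Y-linked gene Eif2s3y, a translation factor, read 9.12 in the same array, against 9.16 in the male vehicle array, and 2.84 to 3.10 in female arrays. Kdm5d and Uty, also Y-linked, read 6.80 and 5.54 there, against 7.17 and 4.84 in the male vehicle array. In female arrays Kdm5d read 2.44 to 2.66 and Uty 2.57 to 2.69. The array labelled male TP thus held Y-linked signal far above that of female arrays together with high Xist. Of 7 pituitary markers, 4 were dim. In the male TP array 5 of the 7 were higher than in the male vehicle array and 2 were lower. Among them Gh and Pomc read 8.55 and 7.86 in the array labelled male TP, with 5.37 to 5.75 for Gh and 6.45 to 6.57 for Pomc on the other arrays. Leaving this array out of the comparison over both sexes leaves the female difference, so values over both sexes are followed by the value in females. Of the neuron, astrocyte, oligodendrocyte and microglia markers 0 were dim, as whole brain should give. Their mean levels differed, from 12.57 to 12.63 over the arrays for neurons down to 7.55 to 7.62 for microglia. Some other marker lists differed between arrays. Hindbrain markers, of which 3 of 7 were dim, lay at a mean level of 5.85 to 6.16 in TP arrays and 6.35 to 6.46 in vehicle arrays. Their TP differences over both sexes were negative for 7 of 7, against 11298 of 18193 genes in all. Bone markers, of which 5 of 6 were dim, lay at 5.46 and 5.57 in female TP arrays, against 4.54 in both female vehicle arrays. They went the other way in males, at 4.11 under TP against 4.60 under vehicle. Their part in the values below was not tested.

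The promoters were read for the androgen receptor's motif, because the list is one of androgen-responsive genes. Of the 30 genes, 24 matched RefSeq promoters (assembly GRCm38.p6, 250 bases before to 50 bases after an annotated start), giving 34 promoters. The 6-base motif AGAACA, or TGTTCT where it lies on the other strand, was found in 4 promoters of 4 genes. That is 11.8% of the members' promoters, against 19% of 32851 promoters of all genes. The whole element was taken as AGAACA, 3 free bases and TGTTCT, with at most 2 mismatches in its 12 fixed bases. It occurred in 0 of the 34 promoters and in 1.84% of all promoters. A match is a description of the letters in this short window and shows no binding. The 4 matching windows are shown because they are where the motif lies close to a member's start. Each is written 5′ to 3′ in the direction of its gene, with the motif in capitals.
Abcc4: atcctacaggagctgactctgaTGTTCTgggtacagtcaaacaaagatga
Spdef: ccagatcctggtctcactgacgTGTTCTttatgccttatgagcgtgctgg
Tsc22d1: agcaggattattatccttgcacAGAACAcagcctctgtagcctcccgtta
Uap1: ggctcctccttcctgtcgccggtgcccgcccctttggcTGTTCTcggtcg

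These windows lie at chr14:118677027-118677076 on the minus strand for Abcc4, chr17:27729120-27729169 on the minus strand for Spdef, chr14:76504067-76504116 on the plus strand for Tsc22d1 and chr1:170174965-170175014 on the minus strand for Uap1. Counted from the annotated start, the first base of the motif stands at -123 for Abcc4, -196 for Spdef, -137 for Tsc22d1 and -12 for Uap1. Abcc4 and Tsc22d1 have other annotated starts whose promoters lack it. The TP differences of these 4 genes were -0.16, -0.13, -0.05 and 0.11 log2 units over both sexes and -0.21, -0.07, -0.08 and 0.16 in females, in the order in which they are listed. Genes with the motif thus had differences of both signs.

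The first question was whether these genes are measured in neonatal brain at all. Most gave clear signal. By the brightest probe set of each gene, 27 of 30 members lay above the level that separates the dimmest 40% of single-gene probe sets (5.49 log2 units). The dim ones were Tmprss2, a serine protease of prostate epithelium, Krt19, a keratin of simple epithelia, and Steap4, a metalloreductase. By this measure 10% of members were dim, against 32.6% of all genes. The measure favours genes with many probe sets, and members had 96 for 30 genes, against 34945 for 18193 genes in all. Over all 96 member probe sets 29 were dim (30.2%), against 40% of all single-gene probe sets. A dim reading on an array is not a zero, and levels of different probe sets cannot be ranked as amounts of RNA.

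Signal percentiles give the place of a member among all single-gene probe sets, as a description of the signal alone. Tsc22d1, a leucine zipper regulator, had signal at percentile 99.8 and Dbi, which binds acyl-CoA and acts on GABA receptors, at 99.4. Zmiz1, a coregulator of the androgen receptor, had 95.6, Appbp2, a ubiquitin ligase adaptor that binds the amyloid precursor protein, 92.4, and Camkk2, a kinase upstream of the energy sensor AMPK, 92. At the other end stood Tmprss2 at percentile 26.9, Steap4 at 34.4, Krt19 at 39, Krt8, another keratin of simple epithelia, at 43.4 and Ptpn21, a protein tyrosine phosphatase, at 45.7. Of the epithelium marker list 7 of 10 genes were dim, with a mean level of 4.84 to 4.91 in TP arrays and 4.85 to 4.93 in vehicle arrays.

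The range over the 6 arrays had a median of 0.25 log2 units over the 30 members and of 0.27 over all genes. It was smallest for Acsl3, an acyl-CoA synthetase that works in lipid droplets, at 0.06, and for Appbp2 at 0.08. It was largest for the dim Tmprss2 at 0.71, followed by Ell2, a transcription elongation factor, at 0.54. The mean level over all 30 members lay between 8.10 and 8.13 in TP arrays and between 8.12 and 8.13 in vehicle arrays.

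**Figure D1:**
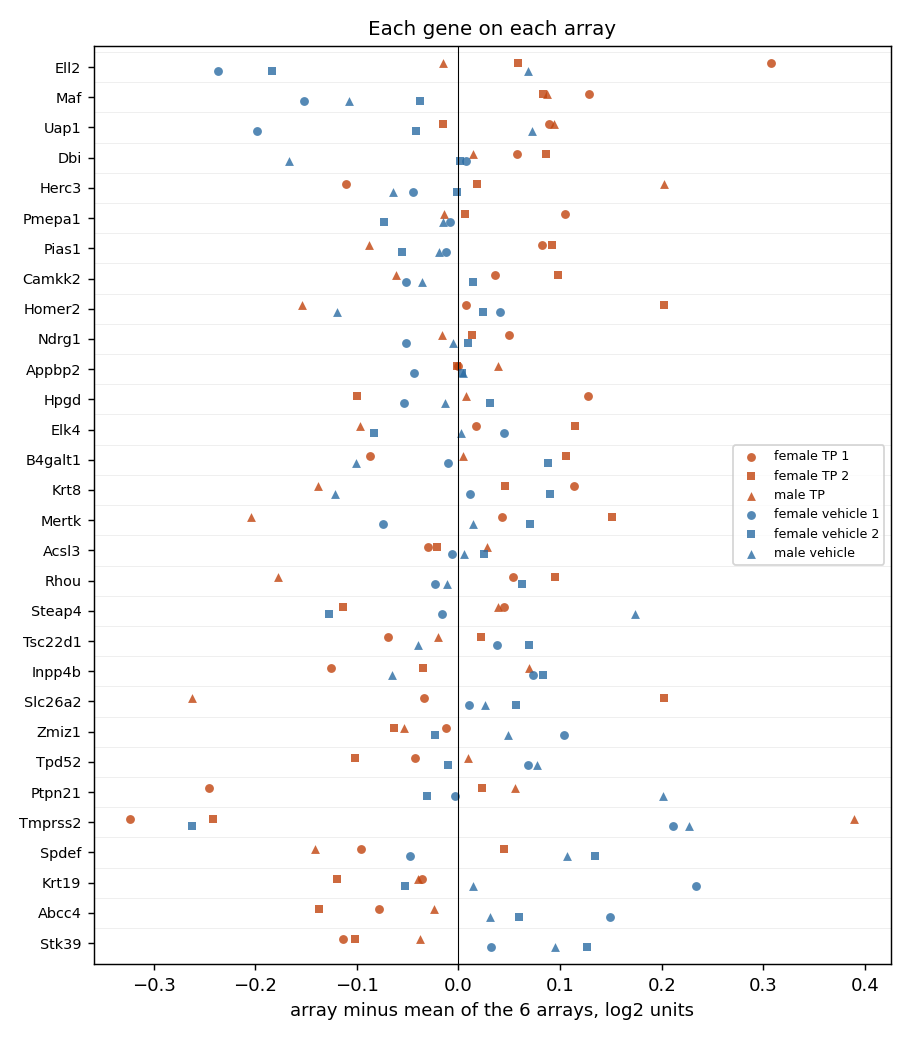
Each member's brightest probe set on each of the 6 arrays, as the array's value minus the gene's mean over the arrays (log2 units), with genes ordered down the page by their TP difference. Orange symbols are TP arrays and blue symbols vehicle arrays, with circles and squares for female arrays 1 and 2 and triangles for males; the widest spread is that of Tmprss2 (0.71) and the narrowest that of Acsl3 (0.06).

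TP was compared with vehicle over all 6 arrays, adjusting for sex. As many members had positive as negative differences. By brightest probe set 15 were positive and 15 negative, with a median of 0.0036 log2 units, while over all genes 37.9% were positive and the median was -0.03. The differences reached from -0.17 for Stk39 to 0.23 for Ell2. By limma, with Benjamini-Hochberg adjustment over all 34945 probe sets, 0 of the 96 member probe sets passed an adjusted p of 0.05 (smallest adjusted p = 0.316), and the share of all probe sets that passed was 0%. The intervals rest on the spread between these arrays, which may be technical, and so do not limit the difference in other mice. The 95% interval lay within a 1.5-fold change in either direction for 30 of 30 members, against 18019 of 18193 genes in all. Its median half-width was 0.17 log2 units over members. Among all member probe sets it lay within that bound for 95 of 96, and for a probe set of Appbp2 it reached 1.51-fold. Without the array labelled male TP the count by brightest probe set was 28 of 30, against 17683 of 18193 genes in all. Ell2 and Tmprss2 were outside the bound.

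At an unadjusted p under 0.05, 8 member probe sets of 5 genes were higher in TP arrays (8.33%, against 5.11% of all probe sets). Another 2, of 2 genes, were lower (2.08%, against 7.21%). Every TP array lay above every vehicle array for 8 member probe sets (8.33%, against 6.01% of all) and below for 6 (6.25%, against 9.12%). None of these counts is a call, since no member passed the adjusted threshold.

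**Figure D2:**
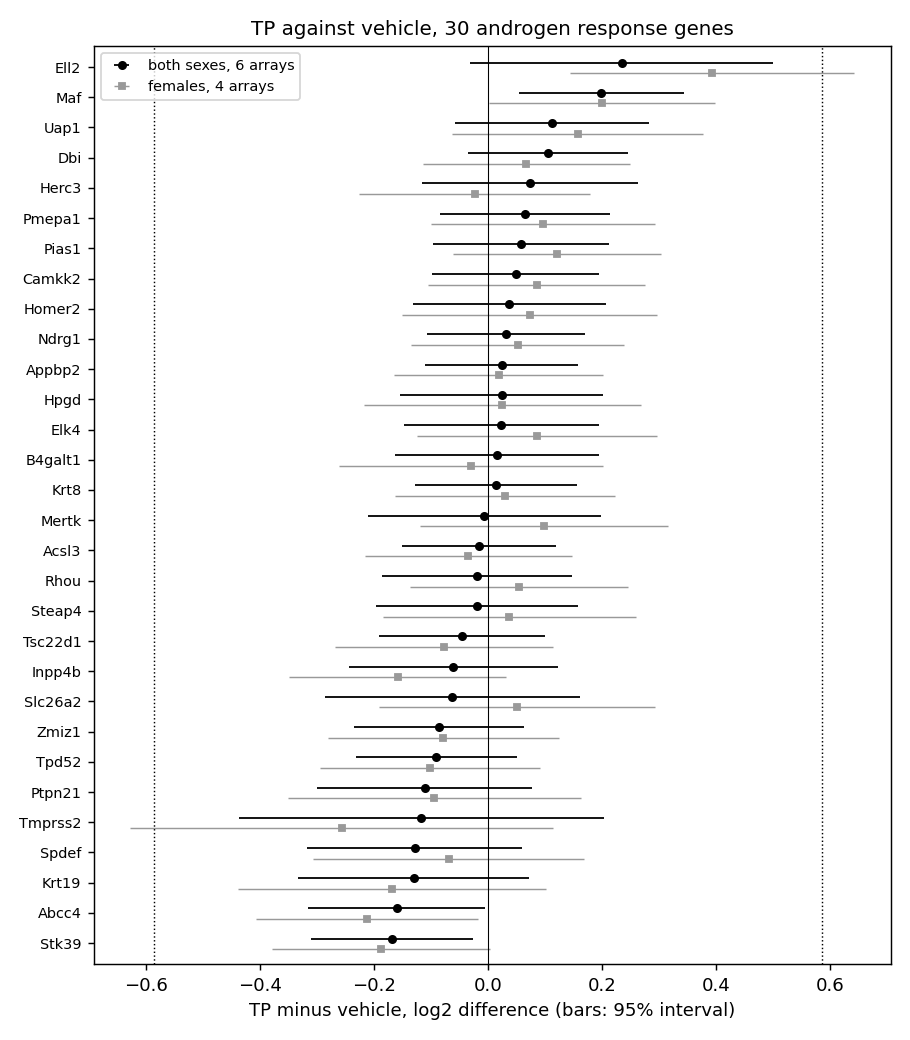
TP minus vehicle for the brightest probe set of each of the 30 members (log2 units), with 95% limma intervals, over both sexes in black and in females in grey. Dotted lines mark a 1.5-fold change in either direction, and all 30 intervals over both sexes lie between them.

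The members are taken below by role, a grouping made after their values were seen. Among the 7 transcription factors and coregulators, Ell2 and Maf had the largest positive differences of the 30 members by brightest probe set. Maf, a basic leucine zipper factor, read 9.85 in the male TP array and 9.89 and 9.84 in female TP arrays, against 9.65 in the male vehicle array and 9.61 and 9.72 in female vehicle arrays. All TP arrays were above all vehicle arrays. The difference was 0.20 (SE 0.06, limma adjusted p = 0.333) over both sexes and 0.20 (SE 0.08, adjusted p = 0.634) in females. Its other 5 probe sets had differences of both signs. One of them, at signal percentile 71.3, separated the groups the opposite way, with 7.88 in the male TP array and 7.89 and 7.90 in female TP arrays, against 8.06 in the male vehicle array and 7.99 and 7.92 in female vehicle arrays (difference -0.10, and -0.06 in females).

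Ell2 belongs to the complexes that speed up RNA polymerase II. It read 6.73 in the male TP array and 7.05 and 6.80 in female TP arrays, against 6.81 in the male vehicle array and 6.51 and 6.56 in female vehicle arrays. The female groups were apart, while the male TP array stood below the male vehicle array and inside the range of the others. Its difference was 0.23 (SE 0.11, adjusted p = 0.449) over both sexes, with an upper bound of 1.41-fold, and 0.39 (SE 0.10, adjusted p = 0.576) in females. The gene's other probe set, which is dim, had -0.02 over both sexes and -0.03 in females.

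Spdef, an ETS factor of prostate and other secretory epithelia, read 5.88 in the male TP array and 5.92 and 6.06 in female TP arrays. Against this stood 6.12 in the male vehicle array and 5.97 and 6.15 in female vehicle arrays, so the groups overlapped. The difference was -0.13 (adjusted p = 0.545), and -0.07 in females. The ETS factor Elk4, the SUMO ligase Pias1, Tsc22d1 and Zmiz1 had differences of 0.02, 0.06, -0.05 and -0.09 by brightest probe set over both sexes. In females they had 0.09, 0.12, -0.08 and -0.08. In this group 4 of 7 genes were positive over both sexes and 4 of 7 in females, beside 37.9% and 40.8% of all genes.

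The 9 genes of signalling and coupling divided over both sexes, with 4 positive and 5 negative, while 37.9% of all genes were positive. Stk39, a kinase that regulates chloride cotransporters and so the response to GABA, read 8.80 in the male TP array and 8.72 and 8.73 in female TP arrays, against 8.93 in the male vehicle array and 8.87 and 8.96 in female vehicle arrays. All TP arrays were below all vehicle arrays. The difference was -0.17 (SE 0.06, adjusted p = 0.364) over both sexes and -0.19 (SE 0.08, adjusted p = 0.644) in females. Its other probe sets had -0.01 and, in a dim one, 0.20 over both sexes, and -0.03 and 0.13 in females.

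Inpp4b, a phosphatase that removes phosphate from inositol lipids, read 7.21 in the male TP array and 7.02 and 7.11 in female TP arrays, against 7.08 in the male vehicle array and 7.22 and 7.23 in female vehicle arrays. Both female TP arrays were below both female vehicle arrays, and the males went the other way. The difference was -0.16 in females and -0.06 over both sexes. Ptpn21 had -0.11 over both sexes and -0.09 in females. Pmepa1, a brake on TGF-beta signalling, had 0.06 and 0.10 on the same scales, Camkk2 0.05 and 0.09, and Homer2, a scaffold of the postsynaptic density, 0.04 and 0.07. The sign turned for Mertk, a receptor kinase that clears dying cells, which had -0.0069 over both sexes and 0.10 in females. It also turned for Rhou, a small GTPase, with -0.02 over both sexes and 0.05 in females.

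Of the 5 lipid and sugar enzymes and carriers, 4 were positive over both sexes and 3 in females, beside 37.9% and 40.8% of all genes. Dbi had positive differences in all 4 of its probe sets. Its brightest one read 12.66 in the male TP array and 12.70 and 12.73 in female TP arrays, against 12.48 in the male vehicle array and 12.65 in both female vehicle arrays. All TP arrays were above all vehicle arrays, though the nearest by only a small step. The difference was 0.11 (adjusted p = 0.513), with 0.07 in females, and the other 3 probe sets of Dbi had 0.15, 0.21 and 0.26, with 0.16, 0.18 and 0.20 in females. The 4 probe sets report the same gene and are not 4 independent measurements.

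Uap1, which makes the UDP-sugar used in glycosylation, read 9.07 in the male TP array and 9.06 and 8.96 in female TP arrays, against 9.05 in the male vehicle array and 8.78 and 8.93 in female vehicle arrays. The groups overlapped over both sexes and were apart in females. Its difference was 0.11 (adjusted p = 0.561) over both sexes and 0.16 in females. Hpgd, which inactivates prostaglandins, and B4galt1, a galactosyltransferase, had 0.02 each over both sexes, and 0.03 and -0.03 in females. Acsl3 had -0.02, and -0.03 in females.

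The 4 genes of transport and the cell surface were all negative over both sexes, and 2 of 4 in females. Over all genes 11298 of 18193 were negative over both sexes and 10778 in females. Since the roles were assigned after the values were seen, the shared sign is a description only. Tmprss2 and Steap4 are dim. Abcc4, a pump that exports cyclic nucleotides and prostaglandins, read 6.32 in the male TP array and 6.27 and 6.21 in female TP arrays, against 6.38 in the male vehicle array and 6.50 and 6.41 in female vehicle arrays. All TP arrays were below all vehicle arrays. The difference was -0.16 (SE 0.07, adjusted p = 0.399) over both sexes and -0.21 (SE 0.08, adjusted p = 0.622) in females. Abcc4 has 1 probe set. Endothelium markers, which mark cells known to carry such pumps, lay at a mean level of 7.21 to 7.30 in TP arrays and 7.40 to 7.45 in vehicle arrays. Of them 5 of 5 were negative, beside 11298 of 18193 genes in all, and 1 of 5 was dim. This direction was not particular to endothelium. Ependyma (5 of 5), neutrophil (6 of 6) and choroid plexus (4 of 5) markers were negative too. Bone (6 of 6) and erythroid (3 of 3) markers were positive. The part of any of these cell types in the Abcc4 value was not tested. Tmprss2 had -0.12 over both sexes and -0.26 in females. The sulphate transporter Slc26a2 had -0.06 and Steap4 -0.02 over both sexes, and in females both turned, to 0.05 and 0.04.

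Keratins had no shared direction. Krt19 read 5.37 in the male TP array and 5.38 and 5.30 in female TP arrays, against 5.43 in the male vehicle array and 5.65 and 5.36 in female vehicle arrays. The groups overlapped, and the highest value was that of female vehicle array 1. The difference was -0.13 (adjusted p = 0.569), and -0.17 in females. Krt8 had 0.01 over both sexes and 0.03 in females. The epithelium marker list had 6 positive and 4 negative differences over both sexes, with a median of 0.02. Its smallest p belonged to Krt18, the filament partner of Krt8 and no member, with -0.30 (adjusted p = 0.316), and -0.27 in females. In the same list Krt7 had 0.17 (dim) and Epcam, an adhesion protein, 0.11. Of the 3 genes of trafficking and ubiquitin transfer, Herc3, a ubiquitin ligase, had 0.07, Appbp2 0.02 and Tpd52, a vesicle protein, -0.09. In females they had -0.02, 0.02 and -0.10, so Herc3 turned sign. The second-brightest probe set of Tpd52, at signal percentile 87.4, went the other way, with 0.10 over both sexes and 0.11 in females. There all TP arrays (9.42 to 9.47) were above all vehicle arrays (9.34 to 9.38).

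Different probe sets of a gene often disagreed. Of 25 members with several probe sets, 6 had differences of 1 sign in all of them over both sexes: Dbi, Hpgd and Pias1 were higher, and Acsl3, Inpp4b and Steap4 lower. The other 19 held both signs. The same share over all genes with several probe sets was not computed, so this count marks no trait of the members. The smallest unadjusted p-values included probe sets that are not the brightest of their gene. The second-brightest probe set of Appbp2, at signal percentile 87.7, read 9.83 in the male TP array and 9.55 and 9.43 in female TP arrays, against 9.17 in the male vehicle array and 9.23 and 9.40 in female vehicle arrays. All TP arrays were above all vehicle arrays, the nearest pair only just. The difference was 0.33 over both sexes, 0.66 in males and 0.17 in females (adjusted p = 0.697 in females), while the brightest probe set of Appbp2 had 0.02.

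Ndrg1, a stress and differentiation gene of the plasma membrane and of myelinating glia, gave the same kind of disagreement. Its least bright probe set, at percentile 62.6, read 7.40 in the male TP array and 7.36 and 7.45 in female TP arrays, against 7.21 in the male vehicle array and 6.99 and 7.21 in female vehicle arrays. The difference was 0.27 over both sexes and 0.31 in females. The gene's brightest probe set had 0.03, and 0.05 in females. For Zmiz1, the probe sets at percentiles 51.1 and 46.6 had 0.26 and 0.21, both over the sexes and in females, and the brightest -0.09 and -0.08. Probe sets of a gene can report different transcript ends, and which of them carries the gene's main transcript in this tissue was not tested.

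**Figure D3:**
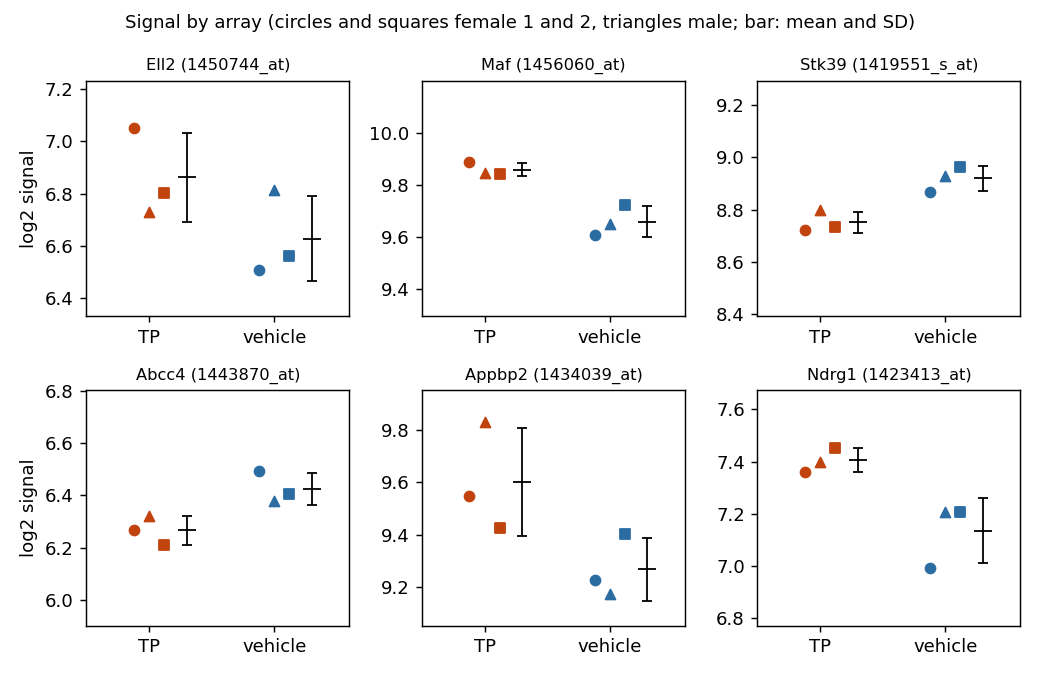
Deposited log2 values of 6 member probe sets on every array, TP at left and vehicle at right, with the mean and SD of 3 arrays each; circles and squares are female arrays 1 and 2, and triangles males. Maf, Appbp2 and Ndrg1 have all TP arrays above all vehicle arrays, Stk39 and Abcc4 all below, and for Ell2 the groups overlap.

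**Figure D4:**
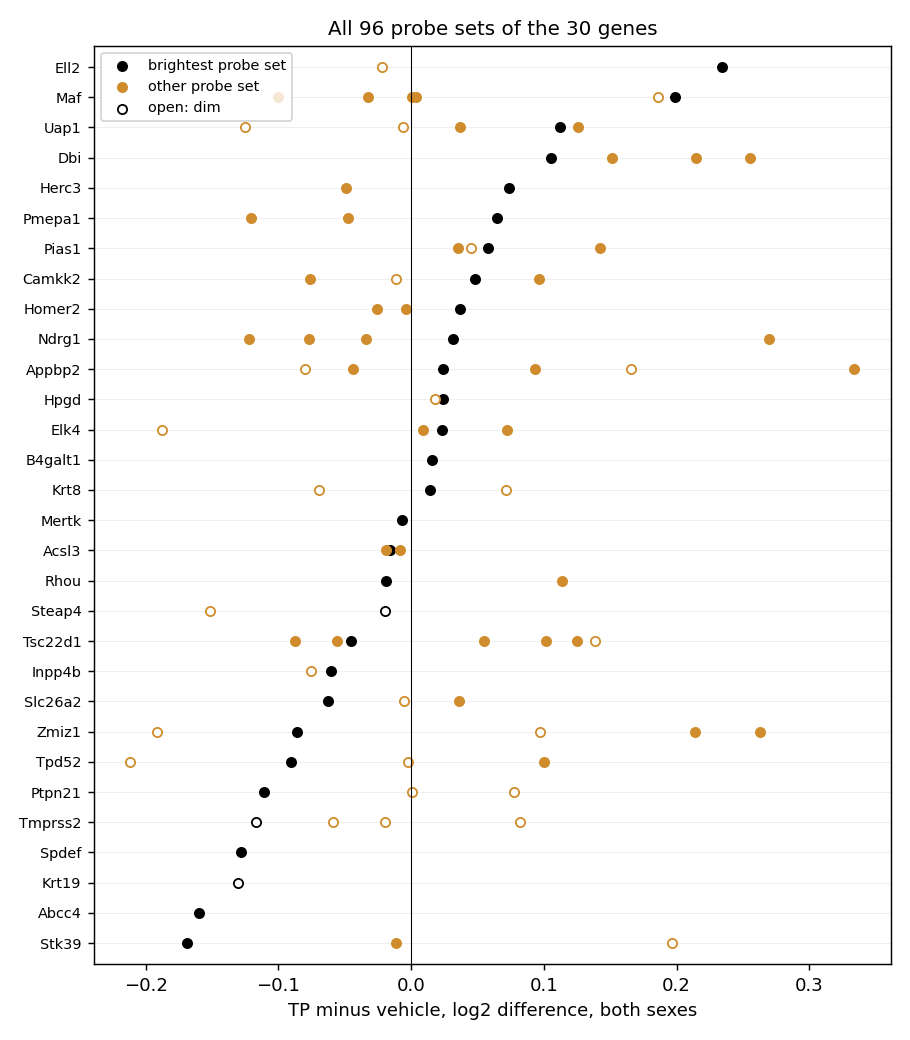
TP minus vehicle over both sexes (log2 units) for all 96 member probe sets, by gene, with open symbols for the 29 dim ones. In 19 of the 25 genes with several probe sets the points fall on both sides of 0.

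In females alone no member passed either. By brightest probe set 17 members were positive and 13 negative, with a median of 0.03 log2 units, against -0.02 over all genes. Of the 96 member probe sets 0 passed (smallest adjusted p = 0.576), against 0.00572% of all probe sets. At an unadjusted p under 0.05, 4 were higher (4.17%, against 3.27% of all), of Ell2, Ndrg1, Pias1 and Maf, and 1 was lower (1.04%, against 4.56%), of Abcc4. Both TP arrays lay above both vehicle arrays for 24 member probe sets of 14 genes (25%, against 16% of all) and below for 15 of 13 genes (15.6%, against 22.5%). For Pias1 this was its probe set at percentile 71.8, which read 8.17 and 8.05 in female TP arrays, against 7.88 and 7.93 in female vehicle arrays.

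In males the arrays of each treatment numbered 1, so no test was made. By brightest probe set 12 members were positive and 18 negative, with a median of -0.03, equal to that of all genes to 2 decimals. A log2 difference of at least 0.3 was reached upward by 3 member probe sets (3.12%, against 4.59% of all probe sets). It was reached downward by 1 (1.04%, against 5.85%). Those upward were of Appbp2 (0.66), Dbi (0.36) and Stk39 (0.34, dim), and the other was of Steap4 (-0.32, dim).

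The TP differences of the sexes were then set against each other, as the male difference minus the female one. Of the members 0 probe sets passed, all at an adjusted p of 1, against 0.02% of all probe sets. At an unadjusted p under 0.05, 2 were higher (2.08%, against 2.27% of all), of Appbp2 and Tmprss2, and 1 was lower (1.04%, against 2.58%), of Ell2. The smallest p-values by brightest probe set were those of Ell2, Inpp4b, Mertk and Herc3. Ell2 had -0.08 in males and 0.39 in females, a difference of -0.48 (SE 0.18). Inpp4b had 0.13 in males and -0.16 in females, a difference of 0.29.

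For Mertk the arrays read 6.24 in male TP and 6.48 and 6.59 in female TP, against 6.46 in male vehicle and 6.37 and 6.51 in female vehicle. The difference of differences was -0.32, and the array labelled male TP was the lowest of the 6. For Herc3 they read 8.22 in male TP and 7.91 and 8.04 in female TP, against 7.95 in male vehicle and 7.97 and 8.02 in female vehicle. Here that array was the highest, and the difference of differences was 0.29. Each of these values rests on the 2 male arrays, and cannot be computed without either.

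Sex was compared next, male minus female, with treatment in the model. By brightest probe set 12 members were higher and 18 lower in males, with a median of -0.02, which was also that of all genes. Of the member probe sets 0 passed (smallest adjusted p = 0.32), against 0.0114% of all. At an unadjusted p under 0.05, 3 were higher (3.12%, against 5.91% of all) and 6 lower (6.25%, against 6.55%). Both male arrays were above all female arrays for 7 member probe sets (7.29%, against 7.83%) and below for 10 (10.4%, against 12.5%).

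The smallest p-values for sex came from Tmprss2, Krt8, Homer2 and Ptpn21. Tmprss2 read 4.86 and 4.69 in the male TP and male vehicle arrays, against 4.14, 4.23, 4.68 and 4.21 in the female TP and then the female vehicle arrays. Both male arrays were above the females, the nearest only just, all at dim signal, and the difference was 0.46 (SE 0.15, adjusted p = 0.32). Without the array labelled male TP it was 0.25 (adjusted p = 0.748).

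Homer2 averaged 9.45 ± 0.02 in male arrays (SD, n = 2) and 9.66 ± 0.09 in female arrays (SD, n = 4), a difference of -0.21 (limma adjusted p = 0.358), or -0.15 without the array labelled male TP. Its arrays read 9.43 and 9.47 in males under TP and vehicle, against 9.59 and 9.79 in female TP and 9.63 and 9.61 in female vehicle. Both male arrays were the lowest. Krt8 read 5.62 and 5.64 in males under TP and vehicle, against 5.88 and 5.81 in female TP and 5.77 and 5.85 in female vehicle. The males were again the lowest, with a difference of -0.20 (adjusted p = 0.331), or -0.17 without that array. Ptpn21 read 6.00 and 6.14 in males, against 5.69 and 5.96 in female TP and 5.94 and 5.91 in female vehicle. Both males were above the females, with a difference of 0.19 (adjusted p = 0.414), or 0.22 without that array. These values are of the brightest probe sets. Over all probe sets of a gene the sex difference held both signs for Homer2 (-0.21 to 0.11), Ptpn21 (-0.10 to 0.19) and Tmprss2 (-0.05 to 0.46). For Krt8 all were negative (-0.20 to -0.04). Averaging a gene's probe sets gave -0.06 for Homer2, 0.08 for Ptpn21 and -0.11 for Krt8.

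Other androgen response genes gave no calls either. Of 63 listed, 54 were measured, with 20 positive and 34 negative over both sexes and a median of -0.03, as over all genes. In females 19 were positive and 35 negative, with a median of -0.03. By limma 0 passed, while 1 was higher and 1 lower at an unadjusted p under 0.05 over both sexes. Among the 30 members by brightest probe set 1 was higher and 2 were lower, and among all genes 3.28% were higher and 7.39% lower. The pair was Azgp1, a secreted zinc-binding glycoprotein (0.17, and 0.19 in females, dim), and Bmpr1b, a receptor for bone morphogenetic proteins (-0.20, and -0.13 in females). Dnajb9, a chaperone of the endoplasmic reticulum, had 0.12 on both scales and Adamts1, a metalloprotease, -0.15, and -0.17 in females. Fkbp5, a chaperone partner of steroid receptors and a widely used androgen target, was picked by name. It read 8.99 in the male TP array and 9.05 and 8.98 in female TP arrays, against 9.08 in the male vehicle array and 9.12 and 9.03 in female vehicle arrays (difference -0.07, adjusted p = 0.683, and -0.06 in females).

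Of 27 genes for androgen action itself, such as chaperones, coregulators, steroid enzymes and other steroid receptors, 20 were measured. Of these 9 were positive and 11 negative over both sexes, with a median of -0.01. By limma 0 passed, while 1 was higher and 1 lower at an unadjusted p under 0.05, beside the same 3.28% and 7.39% of all genes. These were Ube3a, a ubiquitin ligase and receptor coactivator (0.23, and 0.18 in females), and Esr2, the beta form of the estrogen receptor (-0.26, and -0.34 in females, dim). Foxa1, a pioneer factor of prostate, was dim with -0.18, and -0.30 in females. Hsd17b4, a peroxisomal enzyme, had -0.10, and -0.07 in females. Genes of both lists with no single-gene probe set are not analysed here.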

How the data were processed

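The deposited values are on the log2 scale, for 45101 probe sets on 6 arrays. The authors computed them with RMA, per the submitters' processing notes, whose version is not given. No read depth applies, and precision is limited by the number of arrays. Array medians lay between 5.69 and 5.74. Probe sets were named from the platform's annotation: 34945 had 1 gene, 932 several, 9160 none, and 64 were controls.

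The fits over all single-gene probe sets used limma 3.58.1 under R 4.3.3 (lmFit, eBayes without a trend). Tests were two-sided, and p-values were adjusted by Benjamini-Hochberg over all of them. TP over both sexes and sex came from an additive model of sex and treatment on 6 arrays, the female comparison from the 4 female arrays, and the difference between the sexes from a model of 4 groups, with male arrays assumed to vary like female ones. Fits were tested on simulated data. A gene is spoken of by its brightest probe set (mean over arrays), and other probe sets are counted. Values on every array are given for the members with the smallest p-values, 8, 6, 4 and 4 for TP over both sexes, TP in females, the sexes' TP differences and sex; single probe sets named beside them, and the grouping by role, were chosen after their values were seen. Members and lists were chosen with earlier results of these data known. Promoter sequences are RefSeq's, GRCm38.p6. Alternatives were dim probe sets left out, the brightest probe set alone, probe sets averaged per gene, an intensity trend, median centring, quantile normalization again, a replicate block and leaving out each array.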

Additional observations from a re-analysis of the deposited data

How the results depend on the processing

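For the members, the number past the limma threshold was 0 in each of the 4 comparisons under every alternative run, and no named member crossed the threshold. Stk39 reversed over both sexes, to 0.0054 (adjusted p = 0.972), when the mean of its probe sets was tested, which brings in its other probe sets. Leaving out each array in turn moved the median difference of the members between -0.02 and 0.03 over both sexes and between -0.0073 and 0.0374 in females, so its sign rests on single arrays, and left 0 to 0 members past the threshold. Single values, none of them called, moved as well. Ell2 lay between 0.12 and 0.39 over both sexes and between 0.27 and 0.52 in females, Krt19 between -0.20 and -0.04 and Spdef between -0.20 and -0.07 over both sexes, Tmprss2 between 0.25 and 0.67 between the sexes, and Uap1 between 0.05 and 0.16 over both sexes and between 0.08 and 0.24 in females. Averaging a gene's probe sets gave 0.04 for Maf, 0.11 for Ell2 and 0.03 for Uap1 over both sexes, 0.07, 0.18 and 0.0046 in females, and 0.11 for Tmprss2 between the sexes. The difference between the sexes' TP effects has no value without either male array. With the original or replica array as a replicate block, 0 members passed, with smallest adjusted p of 0.313 over both sexes and 0.498 in females and medians of 0.0036 and 0.03. The deviations of same-numbered female arrays correlated at 0.111 over probe sets, and with 2 pairs this does not show that the numbers pair arrays.

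Over all probe sets the count past the threshold varied more. For TP over both sexes it was 0, against 38 with an intensity trend and 2 without either male array. In females it was 2, against 5 with the brightest probe set alone, 1 with dim probe sets left out, 16 with the trend, 8 with median centring, 6 with quantile normalization again and 0 without any 1 female array. For sex it was 4, against 0, 37, 2 and 14 with dim probe sets left out, the trend, the block and the male vehicle array left out. For the difference between the sexes it was 7, against 2 with the brightest probe set or the mean of probe sets and 12 with the trend. The cause was not tested.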
